A study of Mus musculus with 199 samples.

Results

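The 84 genes described here encode the collagens, laminins and integrins of the mouse, out of 31581 genes with a row in the count table. They were chosen by symbol among the 21765 protein-coding genes: collagen chains (Col), laminin chains (Lam) and integrin subunits (Itg), leaving out Itgam and Itgax. The symbols took in 44 collagen chains, 11 laminin chains, 25 integrin subunits and 4 genes that are no subunits, Itgb1bp1, Itgb1bp2, Itgb3bp and Itgbl1, whose products bind integrin tails or resemble integrins. RNA was sequenced from small-cell lung cancer cells of the mouse line KP1 (Rb1-/-Trp53-/-), which were cultured as spheroids or captured from colonies in mouse liver. Laser microdissection took 10 cells at a time. KP1 spheroids gave 28 such libraries, colonies in nude mice 33 and colonies in F1 mice 31. Nude mice, which lack T cells but keep other immune cells, are immunocompromised and F1 mice immunocompetent, and the hosts differ in strain as well. Spheroids of RPC cells, a pre-cancerous line with the genotype Rb1-/-Trp53-/-p130-/+Crebbp-/-, gave 24. Loss of Rb1 and Trp53 is thus shared by every group. Pool-and-split controls, libraries of the same size split from pooled cells, numbered 20, 35 and 24 for KP1 spheroids, nude liver and F1 liver. Bulk spheroids gave 1 library each for KP1, KP2 (Rb1-/-Trp53-/-Ptch1+/lacz), KP3 (Rb1-/-Trp53-/-Axin2+/lacz) and KP5 (Rb1-/-Trp53-/- BAT-GAL). Ages of the animals and the numbers of animals or cultures are not given in the labels, so p-values measure only the spread between captures.

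Collagens are secreted trimers wound from chains of short repeat units, each a glycine followed by a pair of other residues. Fibrillar collagens build the cables of connective tissue, and collagen IV forms the sheet of basement membranes together with laminins, cross-shaped trimers of an alpha, a beta and a gamma chain. Integrins are cell-surface pairs of an alpha and a beta subunit that hold cells to these proteins and signal through kinases at the inner face of the membrane. In normal liver the fibrillar collagens come mainly from stellate cells and fibroblasts, while sinusoidal vessels carry little continuous basement membrane. Small-cell lung cancer cells grow as floating clusters in culture and are known to adhere to matrix through beta-1 integrins.

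Col4a1 and Col4a2, around which the liver results turn, lie head to head on chromosome 8 and are read in opposite directions. In the table Col4a1 covers chr8:11198423-11312826 on the minus strand and Col4a2 chr8:11312805-11449287 on the plus strand, on GRCm38. Their RefSeq starts (GRCm38.p6) lie at 11312826 and 11312805, so that the first 22 bases of both transcripts pair with each other. The overlap, at chr8:11312805-11312826 on the plus strand, is shown because the genes share it, with the only GC box, GGGCGG, in capitals.
Col4a1 and Col4a2 overlap: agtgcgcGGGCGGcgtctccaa
Of the 84 genes, 60 had a RefSeq promoter window of 300 bases, from 250 before to 50 after the start. The letters GGGCGG, sought on both strands, occurred once in the Col4a1 window and 3 times in the Col4a2 window, and in 35.7% of all 32851 windows. CCAAT occurred once in each window and in 37.4% of all windows, and TATAAA in neither window and in 13.6% of all windows. The windows of these genes overlap, so that a match can count for both.

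The glycine repeat that defines a collagen chain can be read in the coding sequences. The first 5 units of the longest run are printed for the collagens that differed between groups and for Col3a1, 1 of the fibrillar chains of liver stroma, from the GENCODE M21 transcript with the longest coding sequence. Capitals mark the glycine codon (GGN) that opens each repeat unit, glycine codons at other places of a unit stay in lower case, and bases are counted from the start codon.
Col4a1, bases 127 to 171: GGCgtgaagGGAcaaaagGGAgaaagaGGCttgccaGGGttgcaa
Col4a2, bases 2329 to 2373: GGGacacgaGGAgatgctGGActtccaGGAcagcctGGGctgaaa
Col22a1, bases 3319 to 3363: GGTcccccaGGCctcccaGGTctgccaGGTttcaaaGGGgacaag
Col8a1, bases 1054 to 1098: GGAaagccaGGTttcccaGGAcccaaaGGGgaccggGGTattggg
Col26a1, bases 595 to 639: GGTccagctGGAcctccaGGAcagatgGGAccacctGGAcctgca
Col3a1, bases 490 to 534: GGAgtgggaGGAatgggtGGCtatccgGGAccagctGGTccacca
The chains differ in how much of them is repeat. Col3a1 had an unbroken run of 344 glycine triplets, in 1464 codons. The longest run was 40 triplets in Col4a1 and 66 in Col4a2, whose repeats are interrupted, 113 in Col22a1 and 61 in Col8a1. In Col26a1 it was 23 triplets, and triplets made up 23.2% of its 440 codons against 80.2% of the 1669 codons of Col4a1.

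Levels are in CPM, a gene's count scaled to a library total of 1000000 gene counts. They compare a gene between libraries and not genes with each other, since gene length was not divided out. The genes were sparse in 10-cell libraries. KP1 spheroids had counts for 43 of the 84 genes, nude liver for 69, F1 liver for 63 and RPC for 61. A mean of at least 10 CPM was reached by 4, 14, 9 and 6 of them. Across these groups 36 genes had a mean under 1 CPM everywhere and 6 had no count at all. The filter on low counts therefore left 11 of the 84 genes for testing in 1 or more comparisons of 10-cell libraries, and 73 were tested in no comparison, pools included. A gene that passed may have done so through 1 group only. Of the 84, 26 share exons with another gene, and whether counting used the strand is not given in the sources used here. Counts of Itga4 (which overlaps Cerkl), Col22a1 (antisense Gm16308), Itgb3bp (Pgm1) and Itgb1bp1 (Asap2 and Cpsf3) are uncertain to that extent.

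Libraries differed in depth and in the tissue they held. Total counts were 3790354 to 5308801 in KP1 spheroid, 1007999 to 4283753 in nude liver, 1682735 to 5543519 in F1 liver and 3512472 to 7616756 in RPC 10-cell libraries, and 17266203 to 42447973 in bulk. Spike-in transcripts took up to 1.36% of counts in spheroid, 31.8% in nude liver and 11.25% in F1 liver 10-cell libraries. Chga, the neuroendocrine granule protein chromogranin A, had a mean of 534.6 ± 188.3 CPM (SD, n = 28) in KP1 spheroids, 341.9 ± 295.3 (n = 33) in nude liver, 238.2 ± 217.5 (n = 31) in F1 liver and 125.1 ± 91.9 (n = 24) in RPC. It was called lower than in KP1 spheroids in each of the other 3 groups, while of its marker list Uchl1 was called higher in F1 liver and Ncam1 higher in RPC. Erythrocyte markers, mostly globins, summed to a median of 0 CPM in spheroids, 551 in nude liver and 1622 in F1 liver, with highest libraries at 31.3, 3743 and 32920 CPM. They were called higher than in spheroids in nude (3 of 3 tested) and F1 liver (4 of 4), and higher in F1 than in nude liver (4 of 4), and their part in the results was not tested. Of 10 hepatocyte markers, 6, Alb included, had no count in spheroid 10-cell libraries. The summed level of the 10 was 0 to 83.6 CPM in spheroids, 33.4 to 4505 in nude liver and 0 to 2112 in F1 liver. The liver medians of this sum, 846 and 185 CPM, lay above the whole spheroid range. For any gene, fewer cells of a type and less RNA per cell cannot be told apart. A gene was called where its Benjamini-Hochberg adjusted p over all tested genes was under 0.05 in edgeR's quasi-likelihood test, and fold changes are log2 with their standard error (SE). The liver comparisons share the spheroid libraries, and the RPC comparison uses them too.

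In nude liver colonies 4 collagens and 1 integrin were called higher than in KP1 spheroids, though Col4a2 kept its call in only 3 of 11 alternative fits. Col4a1, Col26a1, Col22a1, Itga4 and Col4a2 were called higher among the 10 members tested and none was called lower. Over all 7834 genes tested, 17.7% were called higher and 16.3% lower. All 5 were low in spheroids, with medians under 1 CPM there, and entered the test through nude liver, where they are high, so that the count of calls is no support for a difference of these genes as a set. Of the 5, only Col4a1 passed the filter in F1 liver against spheroids. In F1 liver against spheroids, Col4a1 alone was called among 6 members tested, against 7.73% of 7309 genes called higher and 4.91% called lower.

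Col4a1 encodes the alpha-1 chain of collagen IV, the main network former of basement membranes. It ranged from 0 to 30.4 CPM (median 0.589) in the 28 KP1 spheroid libraries, with counts in 18. In nude liver it ranged from 0 to 1007 CPM (median 82.6), with counts in 32 of 33 libraries. In F1 liver the range was 0 to 577 CPM (median 37.4), with counts in 27 of 31. Most liver libraries lay above the spheroids, 30 of 33 and 20 of 31 at 10 CPM or more against 5 of 28, but the ranges overlapped. The mean was 131.6 ± 184.7 CPM (SD, n = 33) in nude liver, 83.5 ± 133 (n = 31) in F1 liver and 4.61 ± 7.80 (n = 28) in spheroids. Against spheroids nude liver gave a log2 fold change of 5.02 ± 0.70 (SE, adjusted p = 2.45e-08). F1 liver gave 4.57 ± 0.83 (adjusted p = 4.70e-05). Between the livers Col4a1 was not called (log2 fold change F1 minus nude -0.44 ± 0.58, adjusted p = 0.635). The F1 libraries fall apart by the pseudogene Rpl19-ps11. Col4a1 was called in the 5 low libraries (5.48, adjusted p = 0.000681, mean 176 and median 115 CPM) and in the 26 others (4.38, adjusted p = 0.000164, mean 65.7 and median 10.5 CPM). The call in F1 liver was lost against the 9 spheroid libraries with at least 0.1% spike-in counts alone (4.51, adjusted p = 0.0739).

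Col4a2 encodes the alpha-2 chain, which joins alpha-1 in the same trimer. It ranged from 0 to 55.1 CPM (median 0.471) in KP1 spheroids, from 0 to 579 CPM (median 1.09) in nude liver and from 0 to 544 CPM (median 0.920) in F1 liver. Its medians differed little, and the liver means of 51.4 ± 117 CPM (SD, n = 33) in nude and 62.1 ± 125 (n = 31) in F1 came from 13 and 10 libraries at 10 CPM or more. The spheroid mean was 9.45 ± 16.2 CPM (n = 28). The fold change in nude liver was 2.39 ± 0.90 (adjusted p = 0.0323), and in F1 liver the gene did not pass the filter. Without the nude library with the most Col4a2 the value was 1.66 and the call was lost (adjusted p = 0.134), as it was in 8 of 11 alternative fits. With a hepatocyte score as a covariate the value was 0.15 (adjusted p = 0.969).

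The chains were often read apart. In nude liver 12 of 33 libraries had both Col4a1 and Col4a2 at 10 CPM or more, 18 had Col4a1 alone, 1 had Col4a2 alone and 2 had neither. In F1 liver the numbers were 9, 11, 1 and 10 of 31, and in KP1 spheroids 2, 3, 5 and 18 of 28. In RPC spheroids they were 1, 5, 10 and 8 of 24. In pools, Col4a1 alone and Col4a2 alone were found in 3 and 1 of 20 spheroid, 25 and 3 of 35 nude liver and 4 and 4 of 24 F1 liver libraries. Libraries with Col4a1 alone thus outnumbered those with Col4a2 alone in both livers and in the nude liver pools, and these counts were not tested. Across libraries log2(CPM + 1) of the chains had r = 0.351 and rho = 0.533 in nude liver (n = 33, adjusted p = 0.0848 and 0.00616, permutation test over 28 relations chosen after values were seen). In F1 liver r was 0.548 and rho 0.482 (n = 31, adjusted p = 0.00628 and 0.0156, permutation test). Without the 2 libraries farthest from the median of Col4a1, r was 0.644 and 0.517. The other collagen IV chains, Col4a3, Col4a4, Col4a5 and Col4a6, did not reach a mean of 1 CPM in any KP1 10-cell group.

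**Figure D1:**
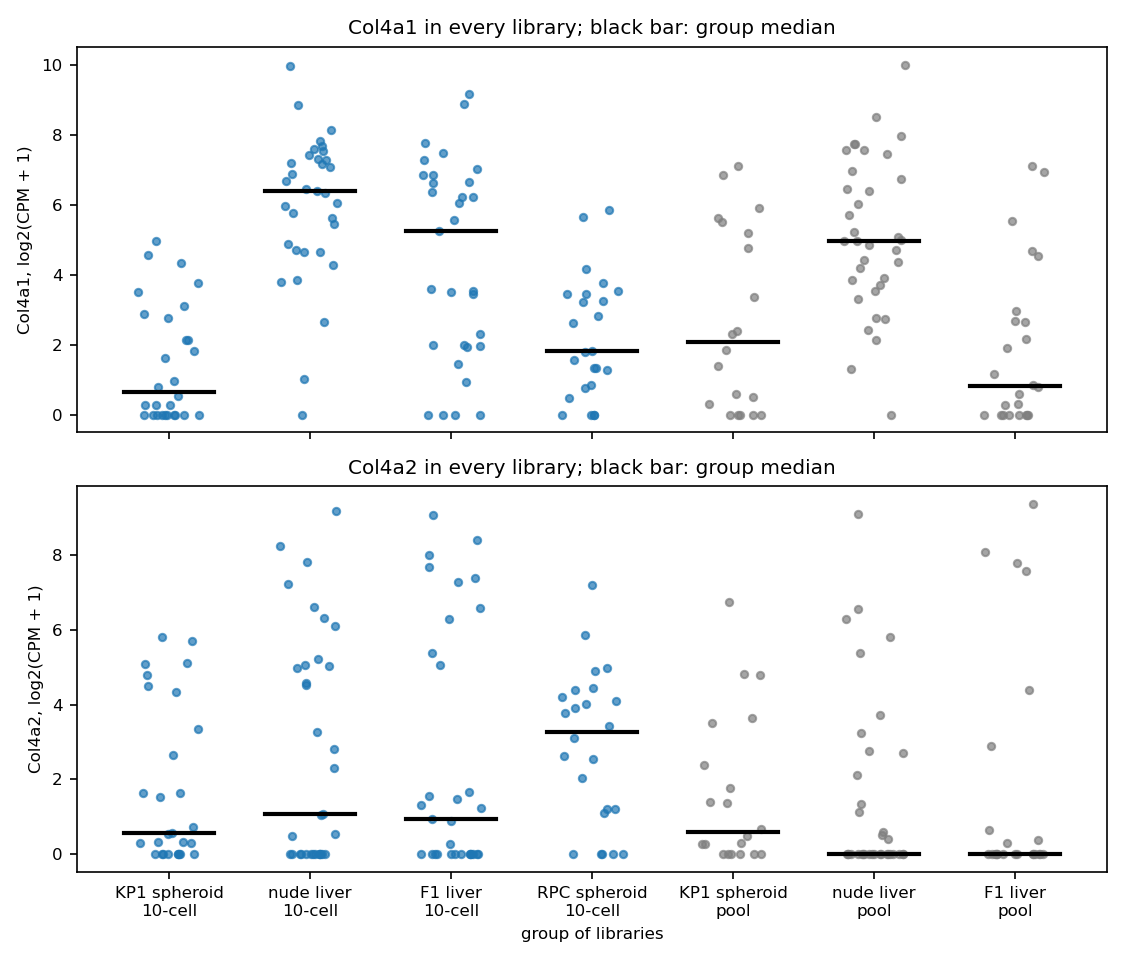
Level of Col4a1 (upper plot) and Col4a2 (lower plot) in every 10-cell library (blue) and pool-and-split library (grey) by group, as log2(CPM + 1), with black bars at group medians. Col4a1 medians were 82.6 CPM in nude liver and 37.4 CPM in F1 liver 10-cell libraries against 0.589 CPM in KP1 spheroids, while Col4a2 medians were 1.09, 0.920 and 0.471 CPM.

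Markers of vessel and stromal cells were read in the same liver libraries. Of 8 liver endothelial markers, Pecam1 and Fcgr2b were tested in nude liver and both were called higher than in spheroids. The summed level of the 8 was 4.39 to 1870 CPM in nude liver, 0.325 to 93.6 in F1 liver and 0 to 36.2 in spheroids. Cdh5, Lyve1 and Clec4g were at 0 in the 10-cell libraries of spheroids and F1 liver. Of 10 stellate and fibroblast markers, Dcn, Lum, Pdgfrb and Acta2 were at 0 in spheroid 10-cell libraries and none was at 0 in either liver. Dcn had counts in spheroid pools, and Dcn, Lum and Pdgfrb had counts in the KP1 bulk library. Des, which the KP1 cells also carry in spheroids, made up much of that list. Without Des its sum was 0 to 220.6 CPM in spheroids (median 4.32), 0 to 555.7 in nude liver (median 22.8) and 0 to 618 in F1 liver (median 44.5). Across nude liver libraries this sum had r = 0.643 and rho = 0.644 with Col4a2 (n = 33, adjusted p = 0.000327 and 0.000467, permutation test; r = 0.583 without the 2 farthest). For Col4a1 it had r = 0.038 and rho = 0.215 (adjusted p = 0.863 and 0.298, permutation test). In F1 liver r was 0.237 for Col4a2 and 0.168 for Col4a1 (adjusted p = 0.309 and 0.465, permutation test). The part of these cells in the collagen IV levels was not tested.

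Fibrillar collagens, the cables of connective tissue, were at or near 0 in KP1 spheroids and reached high levels in a minority of liver captures. None of the 11 passed the filter, so they have levels and no test. Col3a1 (chr1:45311538-45349706) encodes the chain of collagen III, abundant in liver stroma. It had no count in any of the 28 KP1 spheroid libraries. It had counts in 10 of 33 nude liver libraries, up to 532 CPM, and in 9 of 31 F1 liver libraries, up to 416 CPM. The means of 29.8 CPM in nude and 25.6 CPM in F1 liver were at least 1237-fold and at least 1066-fold higher than the floor of the spheroid group, 3 counts over all 28 libraries. These limits rest in part on the highest library of each group, and without it they were 583.5-fold and 524.9-fold. Col1a2 (chr6:4504814-4541544), the alpha-2 chain of collagen I, reached 0.244 CPM in spheroids, with counts in 2 libraries. In nude liver it had counts in 19 of 33 libraries, up to 325 CPM, and in F1 liver in 13 of 31, up to 308 CPM. Most liver libraries therefore had little or none of these chains and a few had a great deal.

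The stromal chains were partly read in the same libraries. Col1a1, the alpha-1 chain of collagen I, is named here with Col15a1, Col5a2, Col6a1, Col14a1, Itgb5 and, further on, Col11a1, Lamb1 and Itgbl1 after their values were seen. At least 1 of Col1a1, Col1a2 and Col3a1 had 10 CPM or more in 10 of 33 nude and 13 of 31 F1 liver libraries, in 4 of 35 nude and 7 of 24 F1 liver pools, and in no library of KP1 or RPC spheroids. Both Col1a2 and Col3a1 did so in 5 nude and 5 F1 liver libraries. Across libraries the relation of Col1a2 with Col3a1 was r = 0.653 and rho = 0.511 in nude liver (n = 33, adjusted p = 0.00148 and 0.00832, permutation test), and 0.417 without the 2 farthest. In F1 liver it was r = 0.757 and rho = 0.722 (n = 31, adjusted p = 0.000187 and 0.00021, permutation test), and 0.640 without the 2 farthest. Col1a2 also followed the stellate and fibroblast markers without Des, with r = 0.616 in nude and 0.533 in F1 liver (adjusted p = 0.000327 and 0.00628, permutation test). For Col3a1 r was 0.310 in nude (0.205 without the 2 farthest) and 0.436 in F1 liver, and rho 0.509 and 0.475 (adjusted p of r 0.131 and 0.0366, of rho 0.00832 and 0.0156, permutation test). At least 1 of Dcn, Lum, Rgs5, Pdgfra and Pdgfrb reached 10 CPM in 3 of the 10 nude and 8 of the 13 F1 liver libraries with such a collagen. Over all libraries such a marker was found in 9 of 33 nude liver, 10 of 31 F1 liver and 4 of 28 KP1 spheroid libraries. The other libraries, without these collagens at 10 CPM, thus held 6 of the 9 in nude liver and 2 of the 10 in F1 liver. In the 5 F1 libraries low in Rpl19-ps11, Col3a1 averaged 105 CPM and Col1a2 52.1 CPM, against 10.3 and 16.5 CPM in the 26 others. Medians were 4.49 and 41.7 CPM against 0 for both genes. Single libraries weighed on these means, with Col3a1 at 416 CPM in 1 of the 5 and Col1a2 at 308 CPM in 1 of the 26. The part of stromal cells in these levels was not tested.

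Other matrix chains of stroma and vessel walls, drawn in the same heat map of libraries, also had more counts in liver. Col15a1, a collagen of the basement membrane zone, had no count in KP1 spheroids, at most 5.93 CPM in nude liver and at least 10 CPM in 8 of 31 F1 liver libraries. Its F1 mean of 9.93 CPM was at least 413-fold higher than the spheroid floor. Col5a2, which helps to start collagen fibrils, was at least 407-fold higher in F1 and at least 94.6-fold higher in nude liver, or 148.9-fold and 25.9-fold without the highest library of each. Col6a1, of the beaded filaments, was at least 303.5-fold higher in nude and at least 42.8-fold higher in F1 liver, and the nude limit was 119.9-fold without the highest of its 9 libraries with counts. Col14a1, which coats fibrils, was at least 222-fold higher in F1 and at least 49.8-fold higher in nude liver, or 106.5-fold and 29.2-fold without the highest library of each. Col18a1, the source of endostatin, had counts in 18 of 33 nude, 10 of 31 F1 and 2 of 28 spheroid libraries, with means of 9.76, 5.47 and 1.75 CPM. A single library carried most of the spheroid mean and another much of the F1 mean, which were 0.00981 and 2.58 CPM without them.

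**Figure D2:**
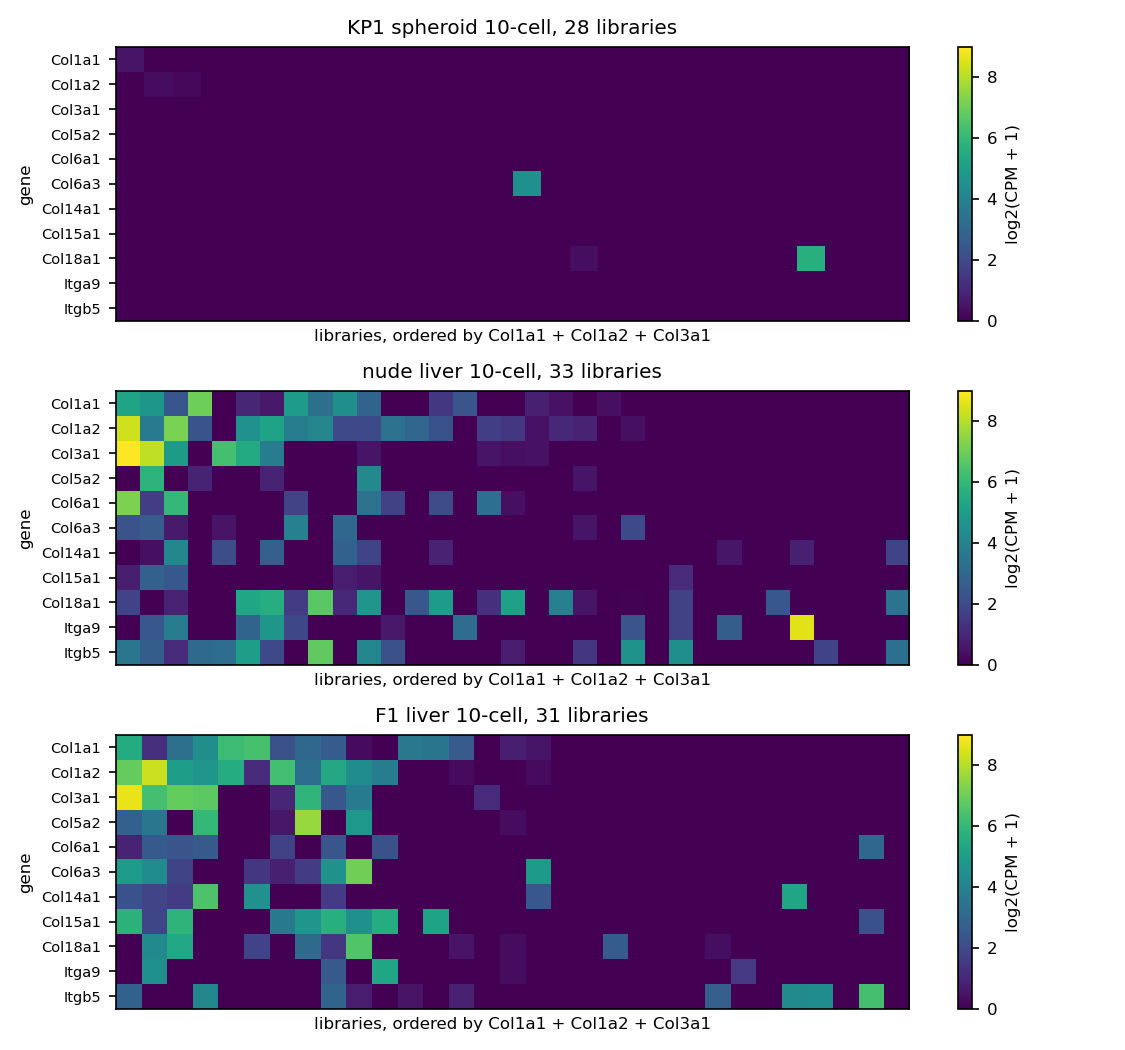
Level of 11 matrix and receptor genes, as log2(CPM + 1) by colour, in each library of KP1 spheroid, nude liver and F1 liver 10-cell captures; columns are libraries ordered by the sum of Col1a1, Col1a2 and Col3a1. At least 1 of these 3 chains reached 10 CPM in 0 of 28 spheroid, 10 of 33 nude liver and 13 of 31 F1 liver libraries.

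Col26a1 (chr5:136741759-136883209) encodes collagen XXVI, a small secreted collagen. It was low in KP1 spheroids, 0 to 9.48 CPM (median 0.427), and had counts in 21 of 28 libraries. In nude liver it had counts in 33 of 33 libraries, from 1.52 to 155.5 CPM (median 12.8). In F1 liver it ranged from 0 to 20.8 CPM (median 1.41), with counts in 28 of 31. Nude libraries were the highest and overlapped both other groups. Means were 26.1 ± 33.7 CPM (SD, n = 33) in nude liver, 3.34 ± 4.74 (n = 31) in F1 liver and 1.22 ± 2.30 (n = 28) in spheroids. The log2 fold change was 4.37 ± 0.67 for nude liver against spheroids (adjusted p = 1.94e-07) and -2.61 ± 0.55 for F1 against nude liver (adjusted p = 0.000279).

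Itga4 (chr2:79255426-79333123) encodes the alpha-4 subunit, which pairs with beta-1 to bind fibronectin and VCAM1 and is best known from leukocytes. It ranged from 0 to 20.9 CPM (median 0.257) in spheroids, from 0 to 137.6 CPM (median 5.46) in nude liver and from 0 to 13.2 CPM (median 0.891) in F1 liver. It had counts in 15 of 28, 32 of 33 and 23 of 31 libraries. As with Col26a1, nude liver had the highest libraries and the groups overlapped. Means were 1.86 ± 4.73 CPM (SD, n = 28), 16.3 ± 29.2 (n = 33) and 2.03 ± 2.95 (n = 31) in that order. Itga4 was called higher in nude liver than in spheroids (2.90 ± 0.73, adjusted p = 0.00113) and lower in F1 than in nude liver (-2.48 ± 0.62, adjusted p = 0.00239). The summed level of 10 macrophage and leukocyte markers was 0 to 138 CPM in spheroids, 0 to 251 in nude liver (median 20.5) and 0 to 596 in F1 liver (median 32.4). In spheroid 10-cell libraries 9 of the 10 had no count, so that Cd68 made up the sum. In each liver 1 of the 10 had none, Adgre1 in nude and Clec4f in F1. The part of leukocytes in the Itga4 levels was not tested. The call against spheroids was lost with a hepatocyte score as covariate (2.30, adjusted p = 0.292) and against the 9 spheroid libraries with more spike-in alone (2.28, adjusted p = 0.143).

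Both genes moved with the depth of the nude liver libraries. In the 29 of these with at least 1500000 gene counts, log2(CPM + 1) of Col26a1 and log2 of the gene total had r = -0.778 and rho = -0.800 (adjusted p = 0.000187 and 0.00021, permutation test), and r = -0.762 without the 2 farthest. For Itga4 they had r = -0.458 and rho = -0.477 (n = 29, adjusted p = 0.035 and 0.019, permutation test), and r = -0.426 without the 2 farthest. In F1 liver r was -0.185 for Col26a1 and -0.189 for Itga4 (n = 31, adjusted p of 0.453 for both, permutation test). Both genes also moved with Fgd4, the gene of an actin-binding exchange factor taken up from earlier results of these data. In nude liver r was 0.829 and rho 0.823 for Col26a1, and r was 0.680 and rho 0.702 for Itga4 (n = 33, adjusted p of at most 0.00021, permutation test). In F1 liver r with Fgd4 was 0.356 and 0.371 (n = 31, adjusted p = 0.0869 and 0.0848, permutation test), and rho was 0.417 and 0.481 (adjusted p = 0.0379 and 0.0156). For Col4a1 the relation with depth was r = -0.079 in the same 29 nude libraries (adjusted p = 0.768, permutation test). The gene total is also the divisor of CPM, so a negative relation with it can be in part built in. Levels of different genes in a library share this divisor as well, and the permutation test allows for neither.

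Split at 3000000 gene counts, a border chosen after the values were seen, Col26a1 had a mean of 6.10 CPM in the 14 deeper nude libraries and 40.8 CPM in the 19 others. Itga4 had means of 5.57 and 24.1 CPM (medians 2.31 and 7.16), and Col4a1 means of 123 and 138 CPM. With the deeper nude libraries alone, Col26a1 was still called higher than in spheroids (2.22, adjusted p = 0.0194), and so was Col4a1 (4.83, adjusted p = 8.82e-06), while Itga4 and Col22a1 no longer passed the filter and have no value. Neither Col26a1 (-0.41, adjusted p = 0.824) nor Itga4 (-0.85, adjusted p = 0.645) was then called between F1 and nude liver, nor was either with only the 5 F1 libraries low in Rpl19-ps11 (-4.11 and -2.97, adjusted p = 0.0915 and 0.205). The part of depth in these differences was not tested further. Of 3 endothelial markers tested between the hosts, Pecam1 and Fcgr2b were called lower in F1 than in nude liver and Kdr was not (-1.11, adjusted p = 0.244), and of 9 hepatocyte markers Alb was called lower.

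**Figure D3:**
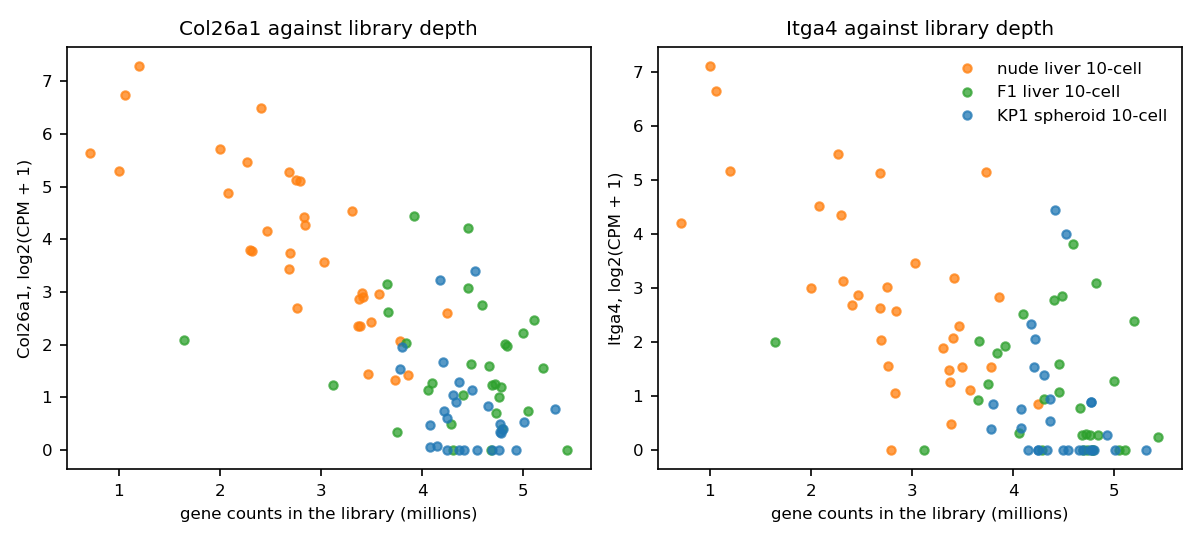
Level of Col26a1 (left) and Itga4 (right), as log2(CPM + 1), against the gene counts of each library in units of 1000000, for nude liver, F1 liver and KP1 spheroid 10-cell libraries. In nude liver both genes are higher in shallower libraries, with means of 40.8 against 6.10 CPM for Col26a1 and 24.1 against 5.57 CPM for Itga4 below and above 3000000 gene counts. The medians of Itga4 were 7.16 and 2.31 CPM.

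Col22a1 (chr15:71795795-72034227) encodes a fibril-associated collagen known from tissue junctions. It ranged from 0 to 21.9 CPM (median 0.201) in spheroids and from 0 to 101 CPM (median 3.34) in nude liver, and most libraries of both groups lay under 10 CPM. The means were 1.21 ± 4.12 CPM (SD, n = 28) and 13.2 ± 22.6 (n = 33), and it was called higher in nude liver (3.56 ± 0.73, adjusted p = 7.42e-05). Without the nude library with the most Col22a1 the gene no longer passed the filter and has no value. In F1 liver it ranged from 0 to 94.1 CPM (mean 12.3 ± 24.3, n = 31) and was not tested against spheroids. Between the livers it was not called (0.37, adjusted p = 0.753).

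Between F1 and nude liver colonies 2 members were called, both lower in F1. Of 10 members tested, none was called higher in F1 and Col26a1 and Itga4 were called lower, against 11.2% of 7064 genes called higher and 7.98% called lower. Col4a2 (0.54 ± 0.91, adjusted p = 0.724), Col8a1 (0.47, adjusted p = 0.653) and Itgb1 (-1.28 ± 0.56, adjusted p = 0.0953) were not called.

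**Figure D4:**
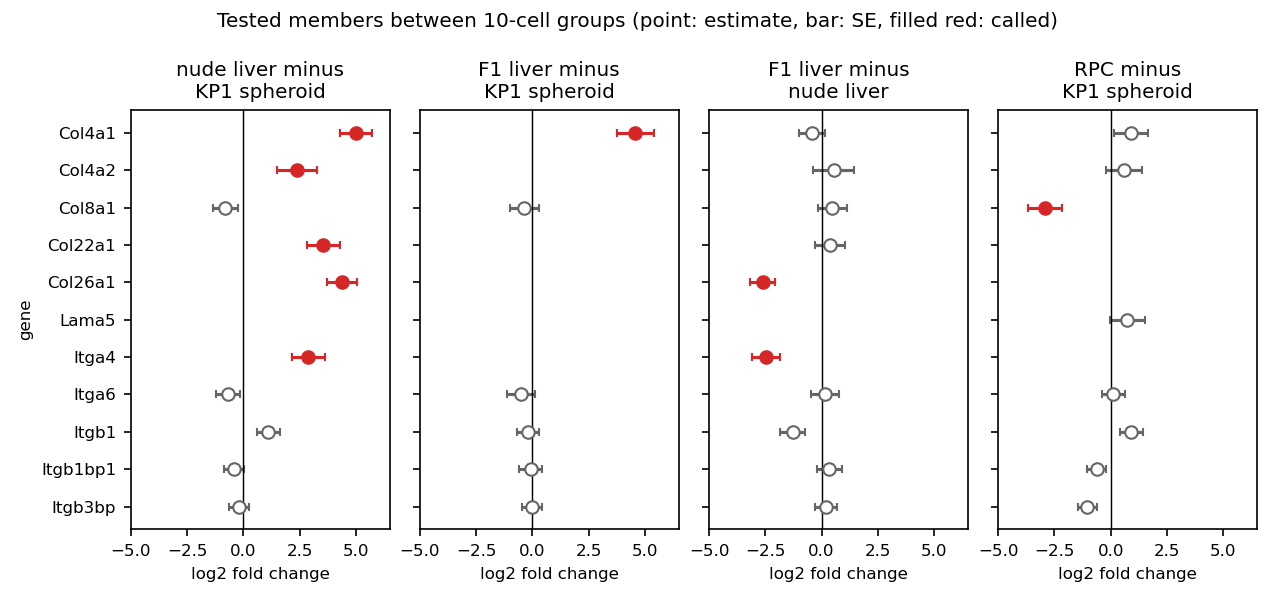
Log2 fold changes with their SE (bars) for the members that passed the filter in each comparison of 10-cell groups, with called members filled in red. Col4a1 lay at 5.02 in nude and 4.57 in F1 liver against KP1 spheroids, Col26a1 and Itga4 lay at -2.61 and -2.48 in F1 against nude liver, and Col8a1 lay at -2.92 in RPC against KP1.

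Laminin chains were mostly too low to test in the livers. Lama5 (chr2:180176373-180225859), the alpha-5 chain of epithelial and vascular basement membranes, had counts in 15 of 28 KP1 spheroid libraries, up to 84.3 CPM. It had counts in 13 of 33 nude and 15 of 31 F1 liver libraries, up to 84.9 and 57.6 CPM, so that the groups overlapped almost entirely. Lamb2, the beta-2 chain found in vessel walls, had counts in 6 of 28 spheroid libraries (mean 0.261 CPM), 22 of 33 nude (mean 15.9 CPM, highest 108) and 6 of 31 F1 liver libraries (mean 1.17 CPM). Lamc1, the gamma-1 chain common to most laminins, had means of 0.182, 2.67 and 0.579 CPM in the same order. Without the highest library of the group, the nude liver mean of Lamc1 was 0.847 CPM, and the spheroid and F1 liver means of Lamb2 were 0.0996 and 0.241 CPM. No laminin chain passed the filter in the liver comparisons.

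Itgb1 and Itga6, the subunits read in every KP1 spheroid library, were not called in liver colonies. Itgb1 (chr8:128685654-128733200), the beta-1 subunit that pairs with many alpha subunits, had counts in 28 of 28 spheroid libraries, from 1.10 to 30.6 CPM (median 4.50). In nude liver it ranged from 0 to 63.7 CPM (median 8.91) and in F1 liver from 0 to 21.5 CPM (median 2.35), and the groups overlapped. Its fold change was 1.11 ± 0.50 in nude (adjusted p = 0.0751) and -0.20 in F1 animals (adjusted p = 0.847). DESeq2 called it higher in nude liver than in spheroids (1.25, adjusted p = 0.00907) and lower in F1 than in nude liver (-1.22, adjusted p = 0.0489). Itga6 (chr2:71745616-71858416), the alpha-6 subunit of laminin receptors, had counts in 28 of 28 spheroid libraries, with a median of 11.8 CPM, 11.3 CPM in nude and 4.09 CPM in F1 liver. It was not called in either (-0.68 ± 0.55, adjusted p = 0.353, and -0.52, adjusted p = 0.636). With 1 SE of about 0.5 log2 units, modest changes in these subunits were not detectable.

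Itgb5 and Itga9 had no count in KP1 spheroid 10-cell libraries and counts in liver. They were not absent from the line, since the KP1 bulk spheroid library had 2.29 CPM of Itgb5 and 1.62 CPM of Itga9. Itgb5, which pairs with alpha-v to bind vitronectin, had counts in 16 of 33 nude liver libraries (mean 7.80 CPM, at least 324.5-fold above the spheroid floor) and in 10 of 31 F1 liver libraries (at least 208-fold). Without the highest library of each group the limits were 189.8-fold and 104.5-fold. Itga9, a partner of beta-1 that binds tenascin, had counts in 11 nude liver libraries, but 1 of them at 387 CPM set most of its mean of 13.96 CPM. Itgb4, the partner of alpha-6 in hemidesmosomes, had counts in 4 of 28 spheroid libraries (mean 0.150 CPM) and a mean of 12.6 CPM in F1 liver from 1 library at 354 CPM. A single library at 364 CPM likewise set the nude liver mean of 11.96 CPM of Itgb1bp2, which is no subunit but encodes the muscle protein melusin and had counts in 3 of 28 spheroid libraries.

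The proteins that bind integrin tails were not called in either liver. Itgb3bp (chr4:99765402-99929813), which binds the beta-3 tail and is also a centromere protein, had medians of 50.8 CPM in spheroids, 24.4 in nude and 37.8 in F1 liver. Its fold changes were -0.18 (adjusted p = 0.787) and -0.02 (adjusted p = 0.986). Itgb1bp1 (chr12:21240825-21286237), which binds the beta-1 tail, had medians of 59.5, 32.2 and 21.95 CPM, and fold changes of -0.41 (adjusted p = 0.513) and -0.08 (adjusted p = 0.950). The groups overlapped for both genes. With limma-voom Itgb3bp was called lower in nude liver (-1.18, adjusted p = 0.0304).

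RPC spheroids had less Col8a1 than KP1 spheroids. It was the only member called of 8 tested, with none called higher. Over all 8600 genes tested, 10.3% were called higher and 11.6% lower, or 882 and 999 genes, and under RLE scaling 1131 and 826. Col8a1 (chr16:57624258-57754737) encodes a short collagen of vessel and corneal basement membranes. It had counts in 27 of 28 KP1 spheroid libraries, from 0 to 48.0 CPM (median 12.5). In RPC it had counts in 13 of 24, from 0 to 18.7 CPM (median 0.234). The groups overlapped, but most RPC libraries lay under 1 CPM and most KP1 libraries above. Means were 2.43 ± 4.60 CPM (SD, n = 24) and 15.2 ± 14.8 (n = 28), the log2 fold change RPC minus KP1 was -2.92 ± 0.74 (adjusted p = 0.00217), and the call held in 8 of 8 alternative fits (-4.36 to -2.75). In the livers Col8a1 was not called against KP1 spheroids (-0.80, adjusted p = 0.271, and -0.36, adjusted p = 0.776). For F1 liver 1 of 11 alternative fits, limma-voom, called it lower (adjusted p = 0.0396).

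The other 7 members tested were not called in RPC. Lama5 had counts in 23 of 24 RPC libraries, with a median of 8.89 CPM against 0.248 in KP1 and means of 18.0 ± 21.4 and 8.37 ± 18.4 CPM. It was not called (0.74 ± 0.79, adjusted p = 0.548), though limma-voom called it higher (2.73, adjusted p = 0.00382), as did the fit with a replicate block (3.41, adjusted p = 0.0094). Itgb3bp stood at -1.03 ± 0.41 (adjusted p = 0.0575), and limma-voom (-1.33, adjusted p = 0.0112), DESeq2 (-1.13, adjusted p = 0.0125) and the replicate block (-1.80, adjusted p = 0.00849) called it lower. Col4a1 (0.89 ± 0.74, adjusted p = 0.426), Col4a2 (0.59 ± 0.80, adjusted p = 0.654), Itgb1 (0.92 ± 0.51, adjusted p = 0.205), Itga6 (0.12) and Itgb1bp1 (-0.63, adjusted p = 0.305) were not called. Col11a1, a minor fibrillar chain of cartilage, had counts in 12 of 24 RPC libraries, up to 60.6 CPM, and in no KP1 spheroid, nude liver or F1 liver 10-cell library. Its mean of 5.26 CPM was at least 218.6-fold above the KP1 spheroid floor, or 118.6-fold without its highest library. Lamb1, the beta-1 laminin chain, had counts in 16 of 24 RPC and 1 of 28 KP1 libraries, and Itgb5 in 14 of 24 and none. Des, the stellate marker that KP1 spheroids carry, was called lower in RPC, with a mean of 0.163 CPM against 60.03.

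Pool-and-split controls gave the same comparisons in pooled cells. The number of pools is not given in the labels, and splits of 1 pool are technical repeats, so that the p-values of these comparisons may cover only the spread between splits. In nude liver against spheroid pools, 4 of 9 members tested were called higher and none lower, against 16.5% of 8010 genes called higher and 9.13% lower (1323 and 731 genes, and 1168 and 995 under RLE scaling). Col26a1 ranged from 5.68 to 69.1 CPM (median 24.3) in 35 nude liver pools and from 0 to 4.41 CPM (median 0.605) in 20 spheroid pools. The groups did not overlap. Its log2 fold change was 4.98 ± 0.60 (adjusted p = 9.60e-10). Itga4 ranged from 0.762 to 149 CPM (median 8.82) in nude liver pools and from 0 to 1.91 CPM (median 0.254) in spheroid pools (5.71 ± 0.80, adjusted p = 5.90e-08). Col22a1 (3.57 ± 0.84, adjusted p = 0.000697) and Col4a1 (2.14 ± 0.79, adjusted p = 0.0376) were called as well. Col26a1, Itga4 and Col22a1 were low in spheroid pools (means 0.905, 0.402 and 1.38 CPM) and entered through the nude liver pools. The calls of Col22a1 and Col4a1 were lost in 2 of 9 and 5 of 11 alternative fits. Without the pool with the most Col4a1 its value was 1.79 (adjusted p = 0.0778). With the 15 nude liver pools above 3000000 gene counts alone, Col26a1 kept its call (4.58), Col4a1 did not (1.98, adjusted p = 0.109), and Itga4 and Col22a1 did not pass the filter.

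F1 liver pools differed from spheroid pools in Col26a1 alone among 7 members tested, against 8.94% of 7249 genes called higher and 2.65% lower. Col26a1 ranged from 0.754 to 67.1 CPM (median 5.53) in 24 F1 liver pools (4.02 ± 0.70, adjusted p = 3.92e-05), and the ranges overlapped. Here too the gene entered the test through the liver pools. Col4a1, the gene that rose in F1 liver 10-cell libraries, was not called in pools (-0.07, adjusted p = 0.977). Its range was 0 to 136 CPM (median 0.755) in F1 liver pools and 0 to 138 CPM (median 3.27) in spheroid pools. The highest fibrillar sums of single libraries were 588 and 899 CPM in F1 and nude liver 10-cell libraries, against 535 and 130 CPM in their pools. Col1a2 alone went the other way in F1 liver, reaching 466.5 CPM in pools against 307.9 CPM in 10-cell libraries. The F1 liver pools carried the most spike-in, with a median of 13.22% of counts. Without libraries over 10% spike-in, no member was called higher in F1 liver pools. Over the 11 alternative fits that gave Col26a1 a value, its log2 fold change was 3.14 to 4.69, and 1 of them did not call it.

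Between-cell differences were sought by asking whether 10-cell libraries spread more than the pools of the same condition. For each library the distance of log2(CPM + 1) to its group's median was taken, and limma compared these distances for genes averaging 5 CPM or more. No member was called among 10 in spheroids, 21 in nude liver and 19 in F1 liver, where 0% of 8602, 0.777% of 9397 and 1.48% of 8759 genes were called in either direction. The lowest adjusted p of a member was 0.757, 0.124 and 0.164. At an unadjusted p under 0.05, Col26a1, Col3a1, Col1a2 and Col4a2 spread more and Itgb1bp1 less in nude liver, Col15a1 more and Itga4 and Itgb3bp less in F1 liver, and Col4a1 and Itgbl1 less in spheroids. Over all genes 14.5% in nude liver, 17.8% in F1 liver and 5.91% in spheroids were under that unadjusted threshold in either direction. Col3a1 deviated by 1.22 log2 units in nude liver 10-cell libraries and 0.112 in the pools. For a gene read in few libraries this measure has little to work with.

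Bulk spheroids, deeper and made by another protocol, showed which members the tumour lines carry, with 1 library per line and no replicate check. Of the 84 genes, 10 had at least 10 CPM in every line and 38 had under 1 CPM in every line. Itgb1 lay at 245, 384, 249 and 466 CPM in KP1, KP2, KP3 and KP5, and its partner Itga6 at 131, 26.2, 195 and 249 CPM. Itga3, another laminin-binding subunit, lay at 67.65, 28.6, 77.3 and 87.0 CPM. The laminin chains Lama5 (57.3, 93.9, 70.2 and 90.4 CPM) and Lamc1 (74.9, 42.3, 61.7 and 55.8 CPM) were present in each line. The beta chains, which complete the laminin trimer, were low in every line, with Lamb2 at 1.48 to 4.65 CPM, Lamb3 at 0.686 to 1.35 and Lamb1 at 0.108 to 0.892 CPM. Col4a1 lay at 56.6, 32.0, 56.3 and 113 CPM and Col4a2 at 44.7, 23.6, 49.8 and 133 CPM. In bulk both chains were thus present in every line. In small KP1 spheroid libraries Col4a1 averaged 4.61 CPM (10-cell) and 24.5 CPM (pools), and Col4a2 averaged 9.45 CPM (10-cell). Col3a1 and Col5a2 had no count in any line.

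Of the 84 genes, 7 differed at least 10-fold between lines and had at least 10 CPM in the highest, of which 5 were collagens and 2 integrin subunits. Col9a3, a fibril-associated chain of cartilage, lay at 0.348 CPM in KP1, 229.9 in KP2, 13.4 in KP3 and 51.95 in KP5, a 661.5-fold range. Its partner Col9a2 was at 1.39, 0.777, 59.2 and 27.7 CPM. Col18a1 was high in KP5 alone (122 CPM against 0.383 to 1.72), Col28a1, known from glial sheaths of nerves, in KP3 alone (23.6 CPM against 0.593 to 0.985). Col8a1 fell from 242 CPM in KP1 through 84.5 and 60.8 to 23.5 in KP5, a 10.31-fold range. Itga1, a collagen-binding subunit, was highest in KP1 (11.6 CPM) and lowest in KP5 (0.165 CPM). Itga8, which binds nephronectin, was at 10.65 CPM in KP2 and rested on 1 count in KP5. Whether these are differences between lines or between single libraries cannot be told apart.

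**Figure D5:**
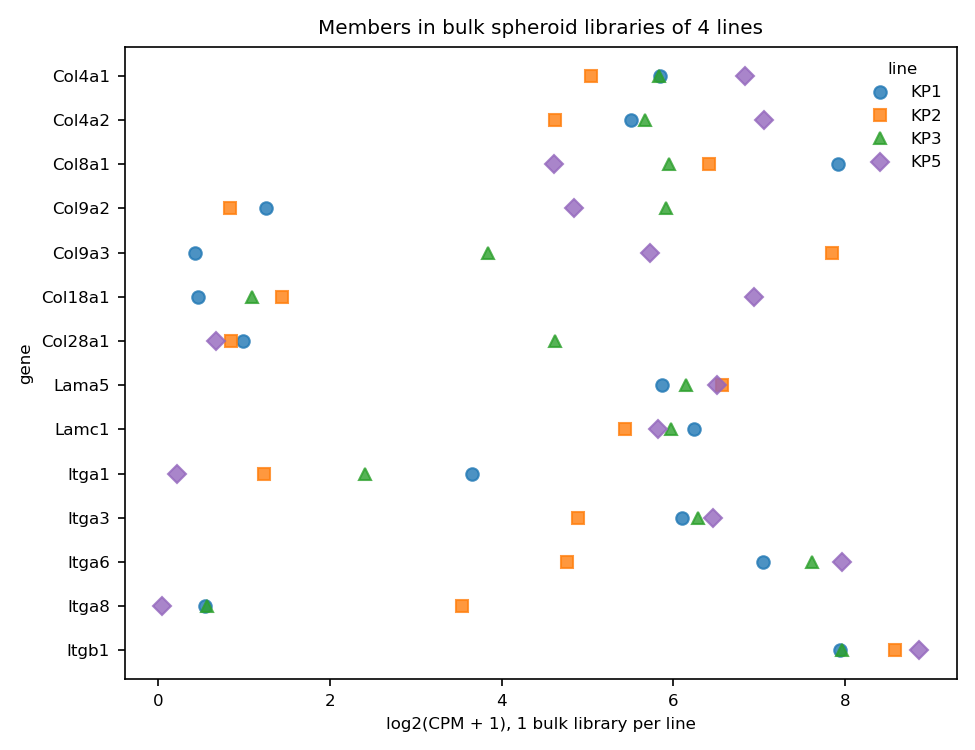
Level of 14 genes in the bulk spheroid libraries of KP1, KP2, KP3 and KP5, as log2(CPM + 1), 1 library per line and no error. Itgb1, Lama5 and Lamc1 cluster closely, while Col9a3 spans 0.348 to 229.9 CPM and Col18a1 0.383 to 122 CPM.

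The genes that process collagen and link integrins to the cell were read from 5 lists, whose counts are to be set against the shares of all genes called that are given above for each comparison. Of 28 genes of collagen processing, 11 were tested in nude liver against spheroids. P4ha1 (1.90, adjusted p = 0.0235) and P4hb (0.86, adjusted p = 0.0272), which hydroxylate prolines of collagen chains, were called higher and none lower. In F1 liver none of 10 tested was called. Between the livers Ppib (-0.82) and Loxl2 (-3.02), a prolyl isomerase and a cross-linking oxidase, were called lower in F1 and none higher of 12. In RPC against KP1, P4ha2 (3.85, adjusted p = 0.000125) and P4ha1 (2.22, adjusted p = 0.00978) were called higher, and P3h1 (-2.91, adjusted p = 0.0004) and Bmp1 (-1.50, adjusted p = 0.0455) lower, of 12 tested.

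Among 19 other matrix glycoproteins, Fn1, the gene of fibronectin and a ligand of alpha-4 beta-1, was called higher in the nude (3.90, adjusted p = 1.51e-05) and the F1 host (2.95, adjusted p = 0.00399). Agrn, a basement membrane proteoglycan, was called higher as well (2.31 and 3.03, adjusted p = 0.0274 and 0.0224), of 3 tested in each. Hepatocytes make Fn1, and 6 of 6 hepatocyte markers tested in nude liver and 1 of 1 in F1 liver were called higher beside it. Their part in the result was not tested. Agrn was also higher in RPC (3.09, adjusted p = 0.00169), and Sparc, a collagen-binding protein, was higher in F1 than in nude liver (2.46, adjusted p = 0.0192). Of 22 genes of integrin adhesion complexes, 15 were tested in nude liver. Cd9 (2.95) and Parva (1.23) were called higher, and Tns3 (-2.51) and Bcar1 (-2.06) lower. In F1 liver Lims1 (-2.30) and Tns3 (-2.20) were called lower and none higher of 13, and in RPC Tns3 (-4.37) and Tln2 (-2.69) lower and none higher of 14. Tns3, which ties integrin tails to actin, was thus lower in each comparison with KP1 spheroid 10-cell libraries, which all 3 share.

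The last lists held receptors and proteases. Of 10 other matrix receptors, Sdc3 (-1.66) and Ddr2 (-1.45), a syndecan and a collagen receptor kinase, were called lower in nude liver of 5 tested, and none of 5 in F1 liver. Sdc3 was higher in F1 than in nude liver (2.09), where Cd9 was lower (-3.07), and Sdc2 was higher in RPC (3.05). Of 11 matrix proteases and inhibitors, none was called among 4 tested in nude and 3 in F1 liver, and Mmp2, a gelatinase, was called higher in RPC (2.20, adjusted p = 0.0403).

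In nude liver pools Sparc (mean 36.9 against 0.0679 CPM), Fn1 (log2 fold change 2.71) and Bgn, a small proteoglycan with no count in spheroid pools, were called higher among 5 glycoproteins tested. Ppib (0.90) and Loxl2 (2.42) were called higher and Colgalt1 (-2.68), which attaches sugar to collagen, lower of 11 genes of collagen processing. Of 15 adhesion complex genes, the tetraspanin Cd9 (2.08) was called higher, and Lims1 (-3.12) and Tln2 (-2.84) lower. The membrane protease Mmp15 (2.61) and the hyaluronan receptor Cd44 (3.62) were called higher, of 4 and 6 tested in their lists. In F1 liver pools Fn1 (3.72) was called higher and Tln1 (-2.37), the gene of talin, lower, with no other call in the 5 lists.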

How the data were processed

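RNA was sequenced from 199 libraries. Per the labels' protocols, 10-cell and pool libraries were laser captured from 8 µm cryosections, amplified by poly(A) PCR and tagmented with Nextera XT, and bulk libraries were made from column-purified RNA with NEBNext Ultra. The table deposited by the authors holds expected counts (estimated read counts per gene), unscaled, 89.3% of them whole numbers. The submitters' processing notes name Bowtie2, RSEM, GRCm38 and GRCh38.p12. All 84 genes are in GENCODE M21, 79 with identical coordinates. The 92 ERCC spike-in rows were left out of library sizes and tests.

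Rounded counts were compared with edgeR 4.0.16 (TMM, filterByExpr, robust quasi-likelihood F test) in R 4.3.3, with only the compared groups in each fit. A call was a Benjamini-Hochberg adjusted p under 0.05 over all tested genes. Spread was tested with limma 3.58.1 (robust eBayes) on log2(CPM + 1). Correlations used 100000 permutations. Floors (3 counts over a group) cover counting error only. The fits were tested on simulated data. No pair of libraries looked like 1 library sequenced again (lowest chi-squared per degree of freedom 29.2). Alternatives were RLE scaling, no filter, limma-voom, DESeq2 1.42.0, a replicate block, a hepatocyte score as covariate and subsets of libraries by spike-in share, Rpl19-ps11 level, depth or highest value. For spread they were a pseudocount of 5, a mean of at least 20 CPM and thinning to the lowest gene total.

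Members were named where called in a 10-cell comparison, at a mean of at least 10 CPM in a 10-cell group, or, in bulk, at 50 CPM or with a 10-fold range. Genes of the lists were named where called. The members, lists and this rule were chosen with earlier results of these data known.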

Additional observations from a re-analysis of the deposited data

How the results depend on the processing

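Counts of members called are given as higher and lower. The main fits gave 5 and 0 (nude liver), 1 and 0 (F1 liver), 0 and 2 (F1 against nude liver), 0 and 1 (RPC), 4 and 0 (nude liver pools) and 1 and 0 (F1 liver pools). Without a filter on low counts they were 44 and 3, 35 and 7, 11 and 18, 28 and 7, 40 and 9, and 30 and 12 in that order, of 71, 67, 73, 65, 76 and 68 tested, since genes read in few libraries then entered. Of all genes 27%, 16.8%, 13.2%, 18.2%, 26.7% and 17.1% were then called higher and 15%, 9.85%, 18.5%, 13.4%, 12.7% and 11.2% lower. With limma-voom 1 member was called lower in nude liver, 1 in F1 liver, 4 in nude liver pools and 2 in F1 liver pools, and in RPC 1 was higher and 2 lower, with 12.2% to 43.6% of all genes called lower over the comparisons. DESeq2 gave 2 lower in RPC, 3 lower in F1 against nude liver, 5 higher in nude liver pools and 2 higher in F1 liver pools, with 12.3% to 29% of all genes called higher and 5.66% to 17.9% lower. With a hepatocyte score as covariate 3 were higher in nude liver, 2 in nude liver pools and 2 in F1 liver pools (6.01% to 12.6% of all genes higher). Each of these fits tested 6 to 10 members.

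Replicate numbers did not pair the samples: the median correlation of same-numbered libraries' deviations was -0.004 to 0.005. With the replicate block 3 members were higher in nude liver, 2 higher and 2 lower in nude liver pools, 1 higher and 2 lower in RPC, and 1 lower in F1 liver pools (3.24% to 17.5% of all genes higher and 7.73% to 27.9% lower, 6 to 9 members tested).

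With only the spheroid libraries at 0.1% spike-in or more, 8 members were higher in nude liver, 4 in F1 liver, 3 in RPC and 0 in F1 liver pools, of 18, 15, 15 and 13 tested (12.1%, 1.39%, 10.2% and 0.131% of all genes higher), and with only those under 0.1%, 3 of 10 in F1 liver pools (6.06%). With only the 5 F1 libraries low in the pseudogene Rpl19-ps11, 2 were higher and 1 lower in F1 liver, 1 higher and 0 lower in F1 against nude liver, and 4 higher in F1 liver pools, of 14, 27 and 13 tested (2.14%, 1.45% and 8.26% of all genes higher and 1.51%, 0.623% and 10.6% lower). Added after seeing the data: with only nude libraries of at least 3000000 gene counts, 2 were higher and 1 lower in nude liver, 0 lower in F1 against nude liver and 1 higher in nude liver pools, of 11, 13 and 7 tested (7.41%, 1.87% and 14% of all genes higher and 8.98%, 0.249% and 9.42% lower), and without libraries over 10% spike-in, 0 were higher and 2 lower of 10 tested in F1 liver pools (7.3% and 7.84% of all genes). The cause of these differences was not tested. RLE scaling changed no count. It moved the median fold change of all genes from 0.01 to 0.16 in RPC, from 0.16 to -0.06 in nude liver pools and from 0.46 to 0.32 in F1 liver pools. No member called in the main fits changed sign. In F1 liver pools 2 members that were not called turned direction with a call. Col8a1 (0.87) was at -3.59 with limma-voom, -4.81 with the replicate block and -5.42 without libraries over 10% spike-in, and Itgb1bp1 (2.20) was at -2.56 with limma-voom. Spread gave 0 members under each alternative.

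Of the 84 genes, 73 passed the filter on low counts in no comparison, and the levels of most of them rest on few counts in few libraries.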
